A study of Mus musculus with 4 samples.

Results

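The 7 genes described here mark Schwann cells and their myelin: Mbp, Pmp22, Sox10, Prx, Mag, Pllp and Cldn19. They were taken by symbol from the authors' deposited gene table, which held 25833 rows, 14134 of them tested by the authors, and each symbol matched 1 tested row. The table compares gastrocnemius, the large calf muscle, of 8-week-old C57BL/6J mice in 2 groups of 2 libraries each: wild-type control mice (WT) and mice with a muscle-specific knock-out of Fundc1 (Fundc1-MKO, mKO below). FUNDC1 is a receptor for mitophagy in the outer mitochondrial membrane. The comparison addresses how the muscle transcriptome differs once Fundc1 is deleted. The promoter that restricts the deletion to muscle was not stated in the sources used here, and whether Schwann cells also lost Fundc1 was not measured. Values are FPKM, a fragment count corrected for transcript length and library size, with 1 value and 1 interval per group made by the authors from that group's libraries. Single animals cannot be seen in these values, and the depth of the libraries is unknown.

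Schwann cells are the glia of peripheral nerves. Those that myelinate wrap 1 stretch of axon in a stack of membrane that insulates it, and muscle holds them along the motor and sensory branches that run between the fibres and, as terminal Schwann cells without myelin, over the neuromuscular junction. SOX10 is the transcription factor that these cells need throughout life; with EGR2 it switches on the genes of myelin proteins. Myelin basic protein and PMP22 belong to the compacted membrane, whereas periaxin, MAG and claudin-19 sit in parts of the sheath that face the matrix, the axon or the sheath's own folds. Excess or loss of PMP22, and mutations of PRX, cause inherited neuropathies in humans.

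Fundc1 itself was at 20.1 FPKM in WT (interval 16.3 to 23.8) and at 4.23 FPKM in mKO (interval 3.15 to 5.31) (q = 0.00338 in the authors' deposited table), so the group labels and the targeted gene went together. Genes that define oligodendrocytes, the cells that make myelin in the brain and spinal cord, were near absent. All 8 on that list were left untested by the authors. In WT 4 were listed at 0 and in mKO 4, with 2 genes at 0 in both groups. The highest value of any of the 8 was 0.0229 FPKM. Prx, a gene of peripheral and not of central myelin, was detected in both groups, so the markers go with the label of Schwann cell and myelin genes, although Pmp22 is also made by other cells of connective tissue.

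Each FPKM counts all transcripts of a gene, whatever start site they used. The authors' deposited table gave 4 start-site identifiers for Pmp22, 2 each for Mbp, Mag and Pllp, and 1 each for Sox10, Prx and Cldn19. RefSeq promoter records (GRCm38.p6, the assembly of mm10) were searched for 5 of the 7 genes, 11 records in all. Promoters of Mbp and Sox10 were not searched. The 250 bases before the start site nearest to the annotated gene start are printed for 3 genes, 5′ to 3′ on the gene's strand. Mag and Cldn19 are printed because, among these records, only theirs held a motif searched for. Pmp22 is printed because it was the most abundant of the 7. Capitals mark CTTTGT, the reverse complement of ACAAAG, in Mag, and GTGGGCG in Cldn19.
Mag, minus strand, chr7:30914864-30915113: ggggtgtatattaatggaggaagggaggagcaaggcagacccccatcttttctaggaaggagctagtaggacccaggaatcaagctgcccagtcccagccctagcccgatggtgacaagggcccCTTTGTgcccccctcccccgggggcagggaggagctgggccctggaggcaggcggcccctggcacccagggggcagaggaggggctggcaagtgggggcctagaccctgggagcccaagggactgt
Cldn19, plus strand, chr4:119255191-119255440: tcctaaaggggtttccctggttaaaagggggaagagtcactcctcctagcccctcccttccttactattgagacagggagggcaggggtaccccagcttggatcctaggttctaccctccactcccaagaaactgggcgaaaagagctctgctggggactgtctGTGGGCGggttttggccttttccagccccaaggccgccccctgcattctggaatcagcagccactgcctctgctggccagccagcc
Pmp22, plus strand, chr11:63128732-63128981: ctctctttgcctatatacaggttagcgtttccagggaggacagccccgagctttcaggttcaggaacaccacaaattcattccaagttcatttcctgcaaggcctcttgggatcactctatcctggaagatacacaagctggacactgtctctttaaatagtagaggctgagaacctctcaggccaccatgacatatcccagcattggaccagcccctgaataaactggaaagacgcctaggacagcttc

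ACAAAG and ACAATG are forms of the core sequence that SOX factors bind, and GTGGGCG is a core of the sequence that EGR factors bind. Both strands of each 300-base record were searched, 250 bases before and 50 after the start, and no match overlapped another. The Mag match begins 126 bases before the start site and the Cldn19 match 86 bases before it. ACAAAG stood in 18.7% of all 32851 promoter records of the mouse, ACAATG in 12.6% and GTGGGCG in 7.97%. These matches are descriptions of letters. Regulatory regions of myelin genes that lie farther away were not searched.

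None of the 7 genes passed a q of 0.05 in the authors' deposited table, where 3.17% of all tested rows did. By the authors' unadjusted p, none was under 0.05 either, against 13.7% of tested rows, and the intervals of the groups overlapped for all 7, while they lay apart in 0.715% of tested rows. When the log2 ratio over its SE was read against a normal distribution, 0.198% of tested rows passed after Benjamini-Hochberg adjustment and none of the 7 was among them. All 7 were at lower FPKM in mKO, by 3.37% for Sox10 to 18.5% for Pllp. This was also so for 56.6% of all tested rows. The median log2 ratio of mKO over WT was -0.13 over the 7 genes and -0.02 over all tested rows with a value above 0 in both groups. The 7 genes may come from the same cells, so their shared direction is not 7 independent observations. Since none of the 7 met any of these rules, a lower level in mKO is not established. If there were one, a lower number of Schwann cells and less RNA per cell could not be told apart in bulk muscle.

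**Figure D1:**
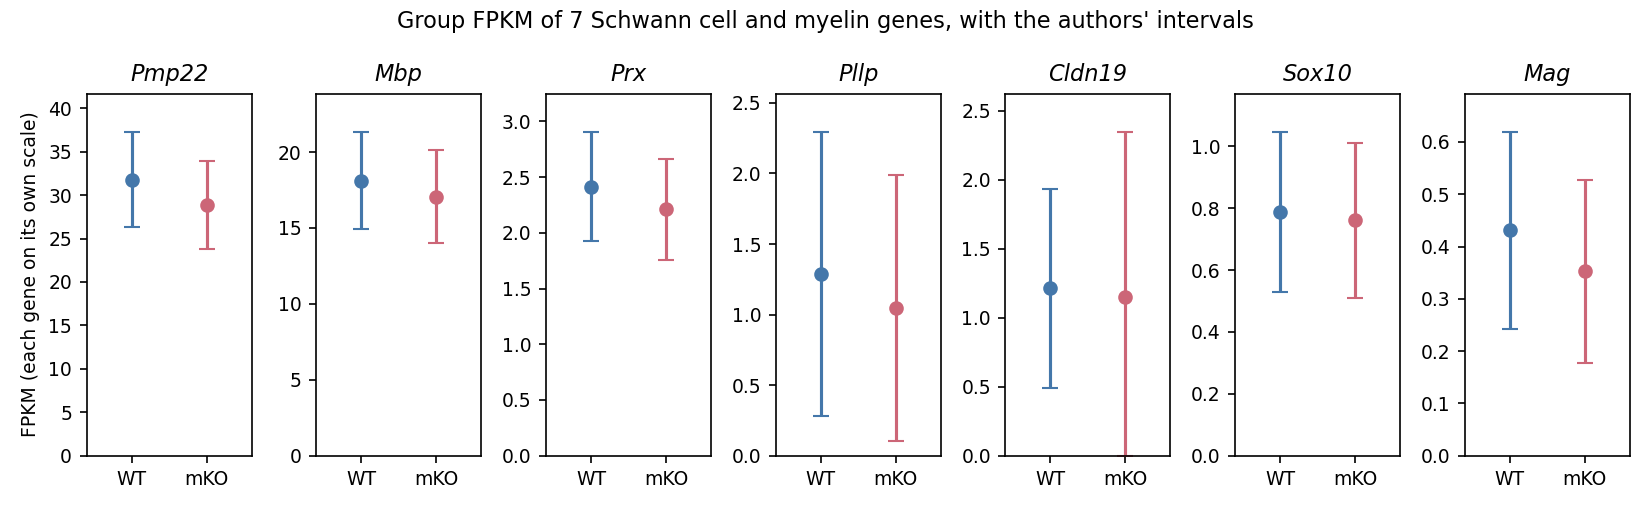
FPKM of the 7 genes in WT (blue) and mKO (red), each gene on its own linear axis from 0; points are the authors' group values and bars the authors' intervals. Each mKO point lies a little below the WT point and inside the WT interval, and the bars are widest, relative to the point, for Pllp and Cldn19.

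Mbp and Pmp22 are structural genes of compact myelin. Mbp encodes the basic protein that holds the cytoplasmic faces of the membrane together, and from an upstream start the same gene gives golli transcripts, which cells outside myelin also make. It was at 18.1 FPKM in WT (interval 14.9 to 21.3) and at 17.1 FPKM in mKO (interval 13.98 to 20.1). The intervals overlapped over most of their length. The log2 ratio was -0.09 with an SE of 0.18, and the authors' deposited table gives p = 0.340 and q = 0.816. A range of 2 SE either side runs from 0.732 to 1.21 times the WT level. Pmp22, a small protein with 4 spans through the membrane, was at 31.8 FPKM in WT (interval 26.3 to 37.2) and at 28.8 FPKM in mKO (interval 23.8 to 33.9). Its log2 ratio of -0.14 (SE 0.18) had the smallest p of the 7, 0.115, with q = 0.542 in the authors' deposited table. The range of 2 SE runs from 0.711 to 1.16 times WT. Among the 1376 tested single-gene rows within a factor of 1.5 of the Pmp22 level, 10.5% had a lower ratio than Pmp22.

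Prx encodes periaxin, a scaffold under the outer membrane of the sheath that links it through dystroglycan to the basal lamina. It stood at 2.41 FPKM in WT (interval 1.93 to 2.90) and at 2.21 FPKM in mKO (interval 1.75 to 2.67). Its log2 ratio was -0.13 with an SE of 0.21, q was 0.706 in the authors' deposited table, and the range of 2 SE runs from 0.686 to 1.22 times WT. Pmp22, Mbp and Prx thus had narrower ranges of 2 SE than Sox10, Mag, Pllp and Cldn19. The ranges of Pmp22, Mbp and Prx stayed within 1.5-fold of the WT level in both directions. This SE was assigned by the authors' software and is not a spread between animals. The ranges therefore set no limit on a change. They are also wider than the authors' test implies: rows with their unadjusted p between 0.04 and 0.06 had a median absolute statistic of 0.981.

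Mag encodes an adhesion protein of the sialic acid-binding lectin family on the innermost membrane, next to the axon. Mag was the least abundant of the 7, at 0.431 FPKM in WT (interval 0.243 to 0.619) and at 0.352 FPKM in mKO (interval 0.178 to 0.527). Its log2 ratio was -0.29 (SE 0.48), with q = 0.699 in the authors' deposited table, and the range of 2 SE, 0.423 to 1.58 times WT, holds losses as well as gains of considerable size. Pllp encodes plasmolipin, a lipid-associated membrane protein with 4 spans. Pllp was at 1.29 FPKM in WT (interval 0.281 to 2.29) and at 1.05 FPKM in mKO (interval 0.106 to 1.99). The log2 ratio of -0.30 was the lowest of the 7, but its SE of 0.86 was nearly 3 times as large, with q = 0.907 in the authors' deposited table and a range of 2 SE from 0.248 to 2.68 times WT. Mag and Pllp had the lowest ratios together with wide errors, and the plot of differences shows both ranges crossing 0.

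Cldn19 encodes claudin-19, which seals the membrane folds of the sheath to one another in tight junctions. Its level was 1.21 FPKM in WT (interval 0.492 to 1.93) and at 1.15 FPKM in mKO, where the interval reached from 0 to 2.34. The log2 ratio was -0.07 with an SE of 0.86, and q was 0.987 in the authors' deposited table. The range of 2 SE, 0.289 to 3.13 times WT, leaves the table with little to say about this gene.

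Sox10, the transcription factor of the lineage, was at 0.787 FPKM in WT (interval 0.529 to 1.05) and at 0.761 FPKM in mKO (interval 0.510 to 1.01). Its log2 ratio of -0.05 (SE 0.33) was the closest to 0 of the 7, and the authors' deposited table gives p = 0.769 and q = 0.975. The range of 2 SE runs from 0.607 to 1.54 times WT.

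**Figure D2:**
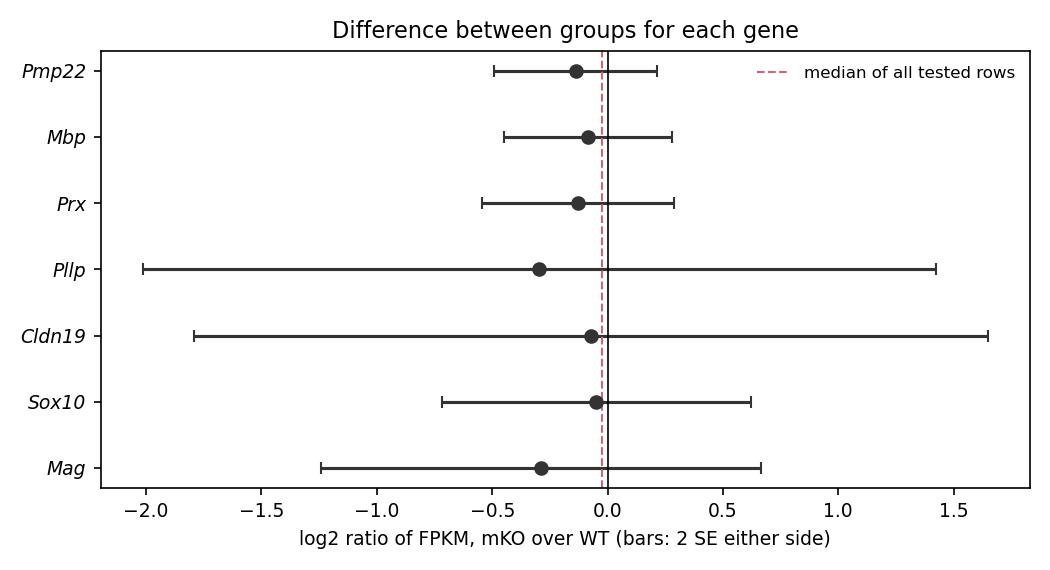
Log2 ratio of FPKM, mKO over WT, for each gene, ordered by WT level, with bars of 2 SE either side derived from the authors' intervals. The solid line marks no difference and the dashed line the median of all tested rows, -0.02. All points lie left of the dashed line and all bars cross 0. A range of 2 SE also crosses 0 for Gas7, Ptn and Jun, described below, which passed the authors' q. Their log2 ratios were -0.32, 0.63 and -0.27, with SEs of 0.20, 0.40 and 0.16.

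The levels of the 7 genes spanned a wide range and kept nearly the same order in both groups. FPKM is a value per transcript length, so levels can be set side by side. In WT the order was Pmp22, Mbp, Prx, Pllp, Cldn19, Sox10 and Mag. In mKO only Pllp and Cldn19 changed places, and their intervals overlapped in both groups. Pmp22 stood 1.75 times above Mbp in WT and 1.69 times in mKO, and Mbp 7.50 and 7.72 times above Prx; the intervals of both pairs lay apart in each group. From Prx downwards, the intervals of neighbours in the order overlapped. By mean FPKM of both groups, 83.2% of tested single-gene rows lay below Pmp22 and 74.5% below Mbp, but only 30.9% below Prx and 4.39% below Mag.

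Set against Sox10, the structural genes kept ratios within their errors in the 2 groups. There were 23.0 FPKM of Mbp per FPKM of Sox10 in WT and 22.4 in mKO, a log2 difference of -0.04 with an SE of 0.38. For Pmp22 the ratio was 40.3 in WT and 37.9 in mKO, a log2 difference of -0.09 with an SE of 0.38. For Prx it was 3.07 and 2.90, a difference of -0.08 with an SE of 0.39. These 3 log2 differences have ranges of 2 SE from -0.87 at the lowest to 0.73 at the highest. Each range holds changes in both directions, and a difference relative to Sox10 was not tested. Mag per Sox10 was 0.547 in WT and 0.463 in mKO, with a log2 difference of -0.24 (SE 0.58). Pllp and Cldn19 per Sox10 had SEs of 0.92 each.

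The 7 genes differed more in their error than in their ratio. Among rows within a factor of 1.5 of the same level, the SE of Pllp was larger than that of 93.3% of 1602 rows, and the SE of Cldn19 larger than that of 93.3% of 1596 rows, where the median SE was 0.33. Prx, at about 2 times their level, had an SE smaller than most: 12.2% of 2007 rows of like level had a smaller one. Mbp, Pmp22 and Mag had SEs near the median of rows of like level, and 32.1% of such rows had a smaller SE than Sox10. The weak precision of Pllp and Cldn19 thus goes beyond their low level, and its source was not tested.

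**Figure D3:**
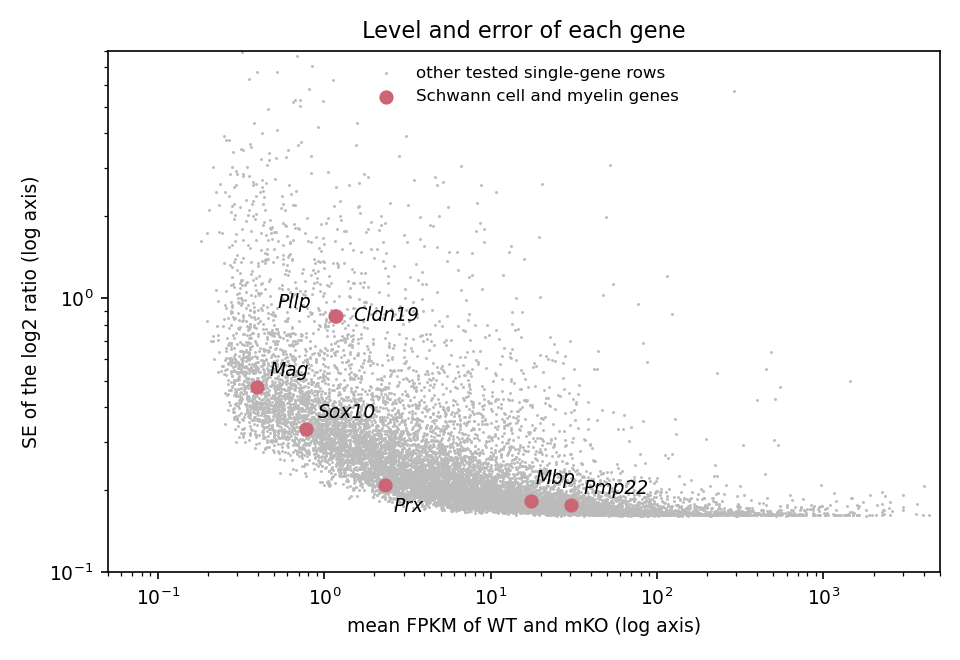
SE of the log2 ratio against mean FPKM, both on log axes, for all tested single-gene rows (grey) and the 7 genes (red). Mag, Sox10, Prx, Mbp and Pmp22 follow the main band, whereas Pllp and Cldn19, at an SE of 0.86 each, lie on top of each other above it.

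For scale, the smallest change that passed q among single-gene rows at the level of Mbp was 1.20-fold, and 42 of 1847 such rows passed. At the level of Sox10 the smallest was 1.34-fold among 54 of 1367 rows, and at the level of Mag 1.46-fold among 33 of 1130 rows. The WT over mKO folds of the 7 genes were 1.06 for Mbp, 1.10 for Pmp22, 1.03 for Sox10, 1.09 for Prx, 1.22 for Mag, 1.23 for Pllp and 1.05 for Cldn19, all under the smallest fold called at their own level. For Pllp and Cldn19 that fold was 1.30, among rows with a median SE of 0.33. Their own SEs were 0.86 each, so this fold does not show what size of change could be called for them.

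The genomic spans in the table, in mm10 and counted from 1, did not all stop at the gene. Mbp (XLOC_010735) was placed on chromosome 18 from 82475123 to 82585637, Sox10 (XLOC_008047) on chromosome 15 from 79154913 to 79164490, and Mag (XLOC_021070) on chromosome 7 from 30899176 to 30914832. Prx (XLOC_019950) lay on chromosome 7 from 27499324 to 27520041 and Cldn19 (XLOC_015689) on chromosome 4 from 119255411 to 119262438. GENCODE release M21 places each of these 5 genes there as protein-coding. The span of Pmp22 (XLOC_002967), on chromosome 11 from 62951193 to 63386069, also holds Cdrt4 and Tekt3, whereas Pmp22 is annotated from 63128982 to 63159547. Cdrt4 and Tekt3 had rows of their own at 0.0572 and 0 FPKM in WT and at 0 in mKO. Next to nothing was thus assigned to them beside 31.8 FPKM for Pmp22 in WT. The non-coding gene B430319H21Rik and the pseudogenes Gm12285 and Gm12286 are also annotated in this span, and the pseudogene Rpl21-ps8 in that of Mbp. Values for these were not examined. The span of Pllp (XLOC_022917), on chromosome 8 from 94666600 to 94696242, also holds Arl2bp, a binding partner of the small GTPase ARL2 annotated from 94666600 to 94674425 next to Pllp. Arl2bp was at 23.1 FPKM in WT and at 26.2 in mKO (q = 0.357 in the authors' deposited table), far above Pllp, and whether its fragments bear on the error of Pllp was not tested. Antisense genes are annotated over Prx (Gm15541), Pllp (Gm45767) and Cldn19 (Gm12927); whether the counting used strand was not stated in the sources used here, so fragments of these pairs cannot be told apart.

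A further 5 lists hold other genes of Schwann cells and myelin, 71 in all, of which 52 were tested. Gas7 and Jun fell, Ptn rose and the other 49 did not pass q; this is 5.77% of the tested genes, beside 3.17% of all tested rows. By the unadjusted p of the authors' deposited table, 6 were lower and 1 was higher at 0.05. Of all tested rows, 13.7% met this threshold in either direction. The median log2 ratio of the 52 was -0.08, with 31 lower and 21 higher in mKO. Of all tested rows, 56.6% were lower in mKO. No gene of these lists passed the normal reading of the statistic or had intervals that lay apart. These rules were met by 0.198% and 0.715% of all tested rows.

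Of 13 tested genes of myelin structure and adhesion none passed q, nor did any reach 0.05 by the unadjusted p in that table. Here 9 were lower and 4 higher, with a median log2 ratio of -0.09. Cd9, a tetraspanin, was at 26.6 FPKM in WT and at 24.8 in mKO. Sirt2, a deacetylase present in myelin and in many other cells, was the most abundant at 69.4 and 70.1 FPKM.

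Of 7 tested genes of myelin lipid synthesis none passed q. Fa2h, the hydroxylase that makes the 2-hydroxy fatty acids of myelin galactolipids, was at 0.745 FPKM in WT and at 0.493 in mKO, a log2 ratio of -0.60 (SE 0.41) with p = 0.0044 and q = 0.0932 in the authors' deposited table. Its intervals overlapped. The 3 most abundant genes, Cers2, Smpd2 and Elovl1, were at 13.3, 7.15 and 3.85 FPKM in WT and at 13.4, 7.39 and 4.43 FPKM in mKO. These 3 genes of sphingolipid and long-chain fatty acid metabolism are used by most cells.

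None of 10 tested transcription factors passed q, with a median log2 ratio of -0.08. The most abundant were the Hippo pathway genes Tead1, Yap1 and Wwtr1, which muscle fibres and connective tissue also express. Wwtr1 was at 11.9 FPKM in WT and at 10.4 in mKO, with p = 0.0221 and q = 0.237 in the authors' deposited table. Egr2, the partner of SOX10 at myelin genes, was singled out after its values were seen. It was at 0.646 FPKM in WT and at 0.579 in mKO, a log2 ratio of -0.16 with an SE of 0.38.

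Of 20 tested genes for signalling receptors, ligands and surface proteins 1 fell and 1 rose, 10 were lower and 10 higher, and the median log2 ratio was 0.03. Gas7, a growth arrest gene first known from fibroblasts and neurons, fell 1.24-fold from 2.94 to 2.36 FPKM (log2 ratio -0.32, SE 0.20, q = 0.0413 in the authors' deposited table). Ptn, the secreted growth factor pleiotrophin, rose 1.55-fold from 0.487 to 0.756 FPKM (log2 ratio 0.63, SE 0.40, q = 0.0449 in that table). Dhh, the hedgehog ligand that Schwann cells send to the perineurium, was at 0.883 FPKM in WT and at 0.659 in mKO, with p = 0.0261 and q = 0.259 in the authors' deposited table. Ednrb, an endothelin receptor of glia and vessels, was at 6.51 and 5.55 FPKM, with q = 0.244 in that table. Plekhb1 and Lama2 were among the 3 most abundant, at 89.6 and 6.49 FPKM in WT and 94.2 and 6.43 in mKO. Erbb3, the neuregulin receptor of Schwann cells, singled out after its values were seen, was at 1.07 and 1.04 FPKM, while the ligand gene Nrg1 was listed at 0 in both groups and untested.

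Genes that Schwann cells switch on after nerve injury were mostly below the level that the authors tested: 8 of 10 were untested. Jun, the transcription factor that drives the repair state and is also an immediate early gene of many cells, fell 1.20-fold from 42.1 to 34.9 FPKM (log2 ratio -0.27, SE 0.16, q = 0.0396 in the authors' deposited table). Bdnf, a neurotrophin, was at 0.807 FPKM in WT and at 0.907 in mKO. Axon transcripts were scarce as well, with 10 of 12 genes untested. The other 2, Stmn2 and Uchl1, were at 3.54 and 6.04 FPKM in WT and 2.76 and 5.12 in mKO. In the authors' deposited table Stmn2 had an unadjusted p of 0.0088 and q = 0.141, and Uchl1 p = 0.0739 and q = 0.446. None of 11 perineurial and endoneurial markers passed q. At an unadjusted p under 0.05, which 13.7% of all tested rows met in either direction, 4 of the 11 had higher FPKM in mKO (Cldn5, Tjp1, Wif1 and Osr2) and 0 had lower. The most abundant of these, Cldn5, Tjp1 and Slc2a1, are shared with blood vessels and other cells.

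**Figure D4:**
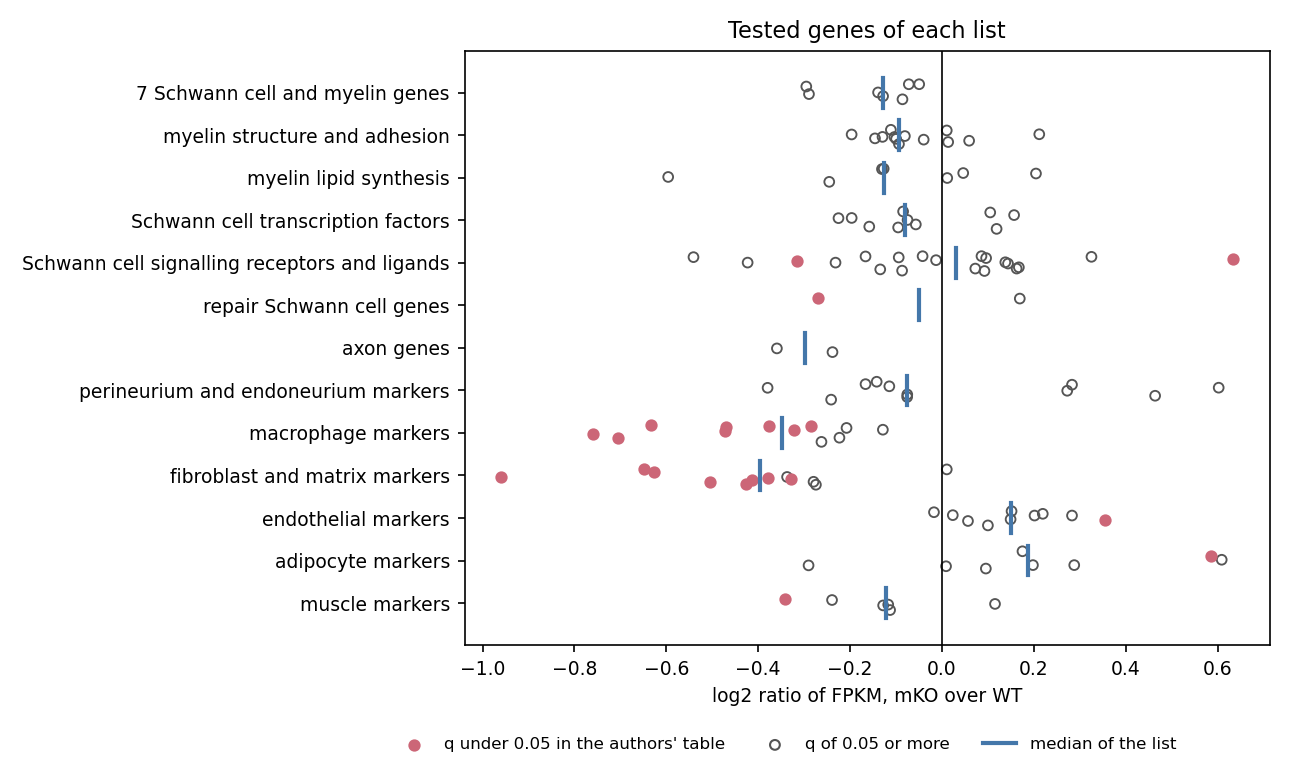
Log2 ratio of FPKM, mKO over WT, of the tested genes in each list; filled points passed the authors' q at 0.05, open points do not, and blue bars are list medians. The 7 Schwann cell and myelin genes lie between -0.30 and -0.05 with no filled point, whereas macrophage and matrix markers have lower medians, -0.35 and -0.40, and 8 filled points each, with points that overlap the range of the 7 genes.

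By the authors' q, most macrophage and matrix markers on the lists were lower in mKO, whereas 1 of 10 endothelial and 1 of 8 adipocyte markers was higher. Over all tested rows, 2.25% passed q at lower and 0.92% at higher FPKM in mKO. Of 12 macrophage markers 8 fell and none rose, with a median log2 ratio of -0.35, and their summed level was 319.1 FPKM in WT and at 251.0 in mKO. Of 12 fibroblast and matrix markers 8 fell and none rose, with a median of -0.40 and summed levels of 336.8 and 286.7 FPKM. No marker of these lists was at 0. Cd68, a macrophage marker, fell 1.69-fold to 14.8 FPKM, and Col3a1, a fibrillar collagen gene, fell 1.57-fold to 23.0 FPKM. By the normal reading, Postn alone of these 24 genes passed. Of 10 endothelial markers Egfl7 rose and none fell (median 0.15), and of 8 adipocyte markers Retn rose and none fell (median 0.19). Neither passed the normal reading. Of 10 muscle genes on the list 6 were tested. Among these 6 Myh2, the type IIa myosin gene, fell 1.27-fold, and their median was -0.12. Myh4, Actn3 and Ckm had no usable value and Des was not found, so this median leaves them out. The summed FPKM of the 7 Schwann cell and myelin genes was 56.0 in WT and 51.4 in mKO, most of it from Pmp22 and Mbp. Connective tissue cells also make Pmp22, and the part that lower matrix transcripts have in its ratio was not tested. Whether the 7 genes differ from any of these lists was not tested, since values of single animals were not analysed here.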

How the data were processed

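Gastrocnemius RNA of 4 mice, 2 WT and 2 mKO, was sequenced on an Illumina instrument, per the labels. TopHat2 2.0.14, Cufflinks 2.2.1, FastQC 0.11.3, bcl2fastq and the build mm10 are named, with no roles, in the submitters' processing notes; annotation and settings were not stated in the sources used here. The authors deposited 1 FPKM per gene and group with an interval, a test score (the statistic), and a p-value and q-value, per the file headers. The planned model on values per library could not be fitted, so the authors' q, adjusted over their table, was used. Libraries are called biological replicates in the labels.

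Log2 ratios were computed from the FPKM without a pseudocount. Their SE took the distance from FPKM to upper bound as 2 SD; the ratio over this SE came within 1% of the authors' statistic in 99.9% of tested rows. Such an SE is the error assigned by the authors' software. A normal distribution would give larger p-values than the authors' for the same statistic: rows with a p between 0.04 and 0.06 had a median absolute statistic of 0.981. The table marks 23 rows as HIDATA, listed at 0 in at least 1 group; these were left out, and a value of 0 may be a failed estimate. Locus starts were raised by 1. One gene was found under an older symbol (Pals1, as Mpp5).

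The genes and lists were chosen with earlier results of these data known. All 7 genes are named; of other lists, genes past q (at most 4), the 3 most abundant tested and, for Schwann cell lists, those with an unadjusted p under 0.05. Where more genes qualified, examples are given, and some qualifying genes are not reported here. Python 3.11.15, numpy 2.4.6, pandas 2.3.3, scipy 1.17.1 and matplotlib 3.10.9 were used.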

Additional observations from a re-analysis of the deposited data

How the results depend on the processing

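The 7 ratios were recomputed with a pseudocount of 0.1 or 1, after scaling the groups to equal medians, and with FPKM summed over all rows of a symbol. With equal medians, the setting among these that could change a sign, the ratios ranged from -0.27 to -0.02. A pseudocount cannot change a sign, and summing left each value as it was, since each symbol had 1 row. Each value moved by less than 1 SE. The median over the 7 genes ranged from -0.13 to -0.08 over these settings and over minimum mean FPKM values of 1 and 5. None of the 7 genes passed any of the call rules. Among the wider Schwann cell and myelin lists 3 genes passed q, 7 had an unadjusted p under 0.05, and 0 passed the normal reading or had intervals apart. Of all tested rows 448 passed q under 0.05, 695 passed q under 0.1, 1930 had an unadjusted p under 0.05, 28 passed the normal reading and 101 had intervals apart. The thresholds change these counts by construction; why the normal reading gives fewer was not tested. No paired analysis was possible because the table holds 1 value per group, and for the same reason no replicate could be left out. Depth is unknown. The ranges of 2 SE derived from the authors' intervals are widest for Pllp, 0.248 to 2.68 times WT, and Cldn19, 0.289 to 3.13 times WT. They are not a spread between animals.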
